A study of Homo sapiens with 16 samples.

Results

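Protein N-myristoylation is the attachment of the fatty acid myristate to a glycine at the start of a protein, and it is carried out by the N-myristoyltransferases NMT1 and NMT2. The genes described here encode 37 known substrates of these enzymes. They were taken by symbol from a fixed list that leaves out the Src family kinases, the ARF GTPases and LAMTOR1. All 37 were found among the 58051 gene identifiers of the expression table, and 35 had enough signal to be tested, a mean of at least 10 normalized counts over the 16 libraries. The study measured RNA in P493-6, an immortalised human B cell line whose MYC transgene is switched off by doxycycline and whose viral EBNA2 factor needs oestrogen to be active. In the high MYC groups cells stayed in ordinary DMEM with serum. In the medium MYC groups beta-estradiol at 1 uM and doxycycline at 0.1 ug/mL were present from 24 h before treatment. IMP1088, which inhibits both NMT enzymes, was then given at 100 nM for 24 h, and control cells received DMSO, which gives 4 groups of 4 libraries. All groups share the one cell line and its MYC transgene, and every medium MYC library carries both additives, so MYC level, doxycycline and estradiol cannot be told apart. The labels do not say that replicates came from separate cultures, so p-values measure the spread between these libraries, which may be technical.

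Myristate is added as the nascent chain leaves the ribosome, once the initiator methionine has been removed, and it can also be added to a glycine that a protease exposes. The lipid holds proteins weakly at membranes, and a second signal, such as a palmitate or a stretch of basic residues, usually makes the binding firm. Proteins of this family relay signals beneath the plasma membrane of B cells, shape actin there, and work at the Golgi and at mitochondria. An NMT inhibitor acts on the proteins, whereas the values here are levels of their messenger RNAs.

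The glycine by which NMT recognises its substrates is visible in the first codons. The opening 24 bases of the coding sequence are printed for the genes on which the results turn, together with the paralog GNAI3 and the kinase subunit PRKACB, which departs from the pattern. They are from GENCODE release 29 transcripts on GRCh38, 5′ to 3′, and capitals mark the codon for the glycine that follows the initiator methionine.
MARCKS: atgGGTgcccagttctccaagacc
BASP1: atgGGAggcaagctcagcaagaag
FMNL3: atgGGCaacctggagagcgccgag
RFTN1: atgGGTtgcggattgaacaagtta
GNAI2: atgGGCtgcaccgtgagcgccgag
GNAI3: atgGGCtgcacgttgagcgccgaa
PRKACA: atgGGCaacgccgccgccgccaag
PRKACB: atggcagcttatagagaaccacct
PRKAB2: atgGGAaacaccaccagcgaccgg
NCS1: atgGGGaaatccaacagcaagttg
HPCAL1: atgGGCaaacagaacagcaagctg
CYB5R3: atgGGGgcccagctcagcacgttg
DEGS1: atgGGGagccgcgtctcgcgggaa
AIFM2: atgGGGtcccaggtctcggtggaa
ZNRF1: atgGGGggcaagcagagcacggcg
GORASP2: atgGGCtcctcgcaaagcgtcgag
RP2: atgGGCtgcttcttctccaagaga
In 36 of the 37 genes the second codon of the annotated principal transcript was GGN, any of the glycine codons, against 1523 of 19562 coding genes (7.79%). GGC was used in 15 of them, GGG in 10, GGA in 6 and GGT in 5. PRKACB has no capitals because its principal transcript has an alanine codon there, although 9 of its 17 coding transcripts begin with GGN. The sixth codon encoded serine, the residue that NMT favours there, in 25 of the 37, against 9.12% of coding genes. The members were listed as known NMT substrates, so both shares reflect that choice and are not independent results. Among paralogs, GNAI2 and GNAI3 shared 21 of the 24 bases and PRKAB1 and PRKAB2 shared 18. At least 1 coding transcript with another second codon was annotated for 18 of the 37 genes, so a gene's count can include messages without the glycine. CYB5R3 is the plainest case, with 1 GGN transcript of 6. The deposited gene counts do not separate such transcripts.

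Each library held 8755296 to 13858534 recovered reads. The targeted pathway was first checked at the RNA level. MYC, the transcription factor set by the transgene, had 31649 ± 2129.7 normalized counts (mean ± SD, n = 4) at high MYC with DMSO and 959 ± 48.7 at medium MYC with DMSO. IMP1088 groups had more MYC RNA at both settings, 47542 ± 505 and 1382 ± 51.2, with log2 changes of 0.59 ± 0.04 (SE, fold 1.505, limma adjusted p = 7.24e-10) and 0.53 ± 0.04 (SE, fold 1.44, limma adjusted p = 2.74e-09). NMT1 had 1505 ± 27.6 with DMSO and 1454 ± 36.3 with IMP1088 at high MYC, and 1729 ± 54.4 and 1662 ± 75.7 at medium MYC, and neither inhibitor comparison was called (0.321 and 0.247, limma adjusted p). NMT2 was near the detection limit at high MYC, with 2.79 ± 1.42 with DMSO, and had 14.6 ± 4.97 at medium MYC with DMSO. The 5 B cell markers MS4A1, CD79A, CD79B, PAX5 and CD22 were present in every library, none at 0. Their summed level was 23284 to 23454 at high MYC with DMSO, 18874 to 19840.1 with IMP1088, 37963 to 38720.2 at medium MYC with DMSO and 33532 to 34737 with IMP1088. MS4A1 gave the largest part of this sum, and the markers did not all move with it. With DMSO, MS4A1, PAX5 and CD22 were higher at medium MYC. CD79A and CD79B were lower there, with log2 differences of -0.12 and -0.11 (limma adjusted p = 0.0101 and 0.0174). With IMP1088, CD79B at both settings and PAX5 at medium MYC were not called. The 4 T cell markers summed to 43.1 to 95.4 over all libraries, with CD3D at 0 in the high MYC IMP1088 group. The 4 myeloid markers summed to 108 to 136 at high MYC and 247 to 291 at medium MYC. The 4 epithelial markers summed to 56.5 to 112, with KRT18 at 0 in every library. Within that sum, EPCAM averaged 62.1 at high and 13.1 at medium MYC with DMSO, and CDH1 0.188 and 55.4. The 3 fibroblast markers summed to 122 to 134 and 68.1 to 96.8 at high MYC, with COL1A2 at 0 in the IMP1088 group there, and to 571 to 649 and 497 to 537 at medium MYC. These sums move with treatment or MYC setting as many member genes do, and their part in the results was not tested. In bulk RNA, fewer cells of a type and less RNA per cell cannot be told apart.

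The 37 genes spanned a wide range of expression. Per kilobase of exon, averaged over the 16 libraries, MARCKSL1 stood highest with 633 normalized counts per kb, followed by DEGS1 with 357, PPP3R1 with 332 and GNAI2 with 318. ZNRF1, with 7.63, was among the lowest of those tested. AKAP12, a kinase anchoring protein, reached 1 read at most in any library, and EEPD1, an endonuclease family protein, reached 4, and neither was tested. The summed normalized count of the members fell into separate ranges by group. It was 18489.9 to 18791 at high MYC with DMSO and 16513 to 16905 with IMP1088. At medium MYC it was 27162 to 27961 with DMSO and 24949.6 to 25450.3 with IMP1088. So the sum was lower with IMP1088 at each setting and higher at medium than at high MYC, with no overlap between the groups. Abundant genes weigh most in it. GNAI2 averaged 1876 with DMSO and 1355 with IMP1088 at high MYC, and 3632 and 2857 at medium MYC. Of the 35 tested members, 21 were not called with IMP1088 at high MYC and 20 at medium MYC.

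The first question was how the RNAs of the substrates respond when NMT is inhibited. At high MYC, 12 of the 35 tested members fell and 2 rose at a limma adjusted p under 0.05 (40.0% called), where 26.8% of all 13765 tested genes were called, 10.5% higher and 16.3% lower. At medium MYC, 13 fell and 2 rose (42.9% called), against 26.3% of all tested genes, 11.7% higher and 14.6% lower. The split over all genes at medium MYC depends on the scaling, with 1606 higher and 2012 lower here, 1962 and 1658 with equal library totals and 1963 and 1876 with quantile normalization. With these other scalings the called members were 4 higher and 9 lower, and 5 higher and 12 lower. The tested members had means over the 16 libraries of 40.1 to 2430 normalized counts, with a median of 581. A background of better expressed genes was therefore also read. In the 9604 genes whose mean reached 100 it was 32.9% called at high MYC, 21.4% lower, and 35% at medium MYC, 19.7% lower. In that set 33 members were tested, and 11 were lower and 2 higher at high MYC, and 13 lower and 3 higher at medium MYC. The median log2 change of the members was -0.05 at high MYC, beside -0.02 for all tested genes, and -0.08 at medium MYC, beside -0.01. Most changes were small, and the extremes were -0.89 for BASP1 and 0.27 for PRKAB2 at high MYC, and -0.94 for CYB5R3 and 0.28 for GORASP2 at medium MYC. In 11 members every IMP1088 library lay below every DMSO library at high MYC, and in 1 above, against 15.8% and 10.9% of all tested genes, 26.7% together. At medium MYC these counts were 11 and 4, against 15.4% and 12.4%, 27.9% together.

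Calls made at each MYC setting were partly shared. MARCKSL1, FMNL1, GNAI2, PRKACA, CHP1, SAMM50, CYB5R3 and RP2 fell at both, which is 66.7% of the 12 that fell at high MYC and 61.5% of the 13 at medium MYC. Over all tested genes, 1154 fell at both, 51.4% and 57.4% of the respective lists. The 2 rises at each setting concerned different genes. A call at one setting alone does not show that responses differ, and the test of the difference itself is given with the genes below.

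**Figure D1:**
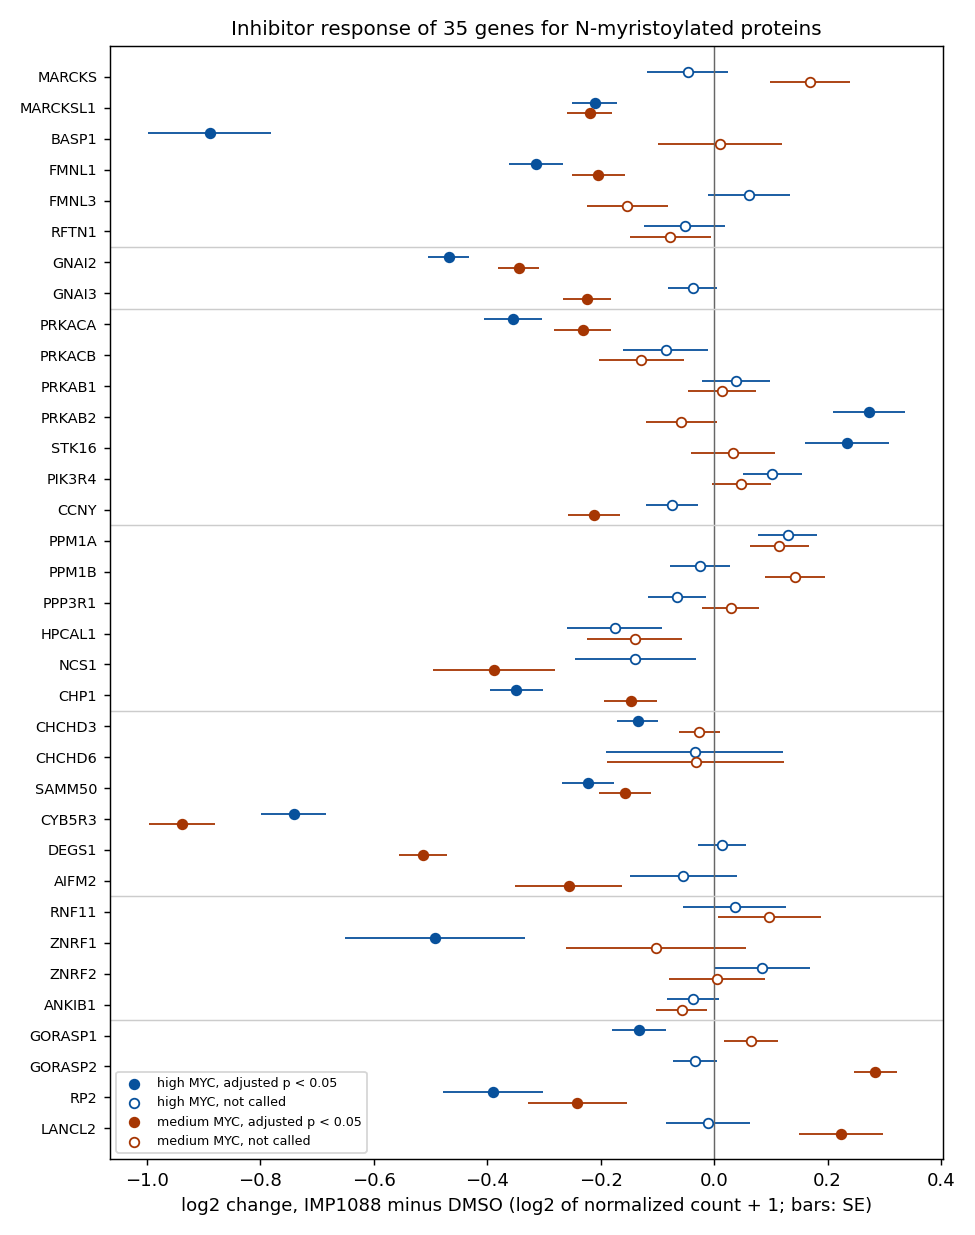
Log2 change with IMP1088 (x axis, log2 of the normalized count plus 1, IMP1088 minus DMSO) for the 35 tested members, grouped by role from membrane-actin proteins at the top to Golgi proteins at the bottom. Blue is high MYC and brown medium MYC, filled points have a limma adjusted p under 0.05 and bars are SEs; filled points lie mostly left of 0, with BASP1 at -0.89 in blue and CYB5R3 at -0.94 in brown.

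The inhibitory G protein alpha subunits relay signals from chemokine and other receptors, and myristate helps to hold them at the plasma membrane. GNAI2 (ENSG00000114353, chromosome 3, 50226292 to 50259355, plus strand), abundant in lymphocytes, fell at both settings. GNAI2 had normalized counts of 1919.8, 1926, 1821 and 1835 with DMSO and 1336, 1349, 1355 and 1380.4 with IMP1088 at high MYC. The medium MYC values were 3598, 3409, 3936 and 3585 with DMSO and 2758, 2902, 2911 and 2859 with IMP1088. All IMP1088 libraries lay below all DMSO libraries of the same setting. GNAI2 had a log2 change of -0.47 ± 0.04 (SE, fold 0.723, limma adjusted p = 3.52e-09) at high MYC and -0.34 ± 0.04 (SE, fold 0.788, limma adjusted p = 2.61e-07) at medium MYC. The paralog GNAI3 had a log2 change of -0.04 (adjusted p = 0.565) at high MYC and fell by 0.22 on the log2 scale at medium MYC (adjusted p = 3.74e-04), and the difference between these responses, high minus medium, was 0.19 (adjusted p = 0.0594). GNAI3 exons overlap those of neighbouring genes over 2142 bases, so its counts are uncertain. Among all tested genes, 16.3% fell and 10.5% rose at high MYC, and 14.6% fell and 11.7% rose at medium MYC. Of 14 tested genes for other G protein subunits, 5 fell and 2 rose at high MYC, and 5 fell and 1 rose at medium MYC. With 1 library left out, 2 of the falls at high MYC, GNG5 and GNG7, and the rise at medium MYC, GNG7, did not hold in every fit. GNG2, a gamma subunit, fell by 0.92 and 0.60, and GNAS, the stimulatory alpha subunit, by 0.23 and 0.20 (log2, high and medium MYC). GNB4, a beta subunit, had a higher response at high than at medium MYC, with a difference of 0.46 (adjusted p = 5.50e-04).

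The membrane-actin proteins bind acidic lipids or actin beneath the plasma membrane. Of 6 tested, BASP1, MARCKSL1 and FMNL1 fell at high MYC, and MARCKSL1 and FMNL1 fell at medium MYC. For comparison, 16.3% of all tested genes fell at high MYC and 14.6% at medium MYC. BASP1 (ENSG00000176788, chromosome 5, 17065598 to 17276843, plus strand), a membrane-bound growth-cone and signalling protein, had the largest fall of any member at high MYC. At high MYC, BASP1 stood at 53.5, 42.7, 50.8 and 42.5 normalized counts with DMSO and at 23.7, 24.4, 32.3 and 20.8 with IMP1088. Under medium MYC, BASP1 had 625, 553, 652 and 606 with DMSO and 617, 637, 586 and 610.0 with IMP1088. At high MYC the groups did not overlap, while at medium MYC, where BASP1 RNA was far more abundant, they did. BASP1 had a log2 change of -0.89 ± 0.11 (SE, fold 0.54, limma adjusted p = 2.36e-06) at high MYC and 0.01 ± 0.11 (SE, fold 1.01, limma adjusted p = 0.959) at medium MYC. The difference between the responses was -0.90 ± 0.15 (SE, limma adjusted p = 4.57e-04). BASP1 shares 75 exonic bases with its antisense gene and has 1 named pseudogene, and whether reads were assigned by strand is not given in the sources used here. MARCKSL1, which binds actin and calmodulin, fell by 0.21 and 0.22 on the log2 scale at high and medium MYC (adjusted p = 3.71e-04 and 2.22e-04). FMNL1, a formin that elongates actin filaments in blood cells, fell by 0.31 and 0.20 (adjusted p = 3.34e-05 and 0.0025). MARCKS, the close relative of MARCKSL1, had log2 changes of -0.05 (adjusted p = 0.681) and 0.17 (adjusted p = 0.0852). At medium MYC every MARCKS value with IMP1088 lay above every DMSO value. For these 6 genes at medium MYC limma called 2, and edgeR and DESeq2 each called 4.

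Among kinases and kinase subunits, PRKACA fell at both settings, PRKAB2 and STK16 rose at high MYC, and CCNY fell at medium MYC. PRKACA (ENSG00000072062, chromosome 19, 14091688 to 14118084, minus strand) is a catalytic subunit of protein kinase A. The normalized counts of PRKACA at high MYC were 448, 435, 453 and 411 with DMSO and 342, 347, 333 and 342 with IMP1088. Medium MYC libraries gave 1020.1, 964, 1109 and 962 with DMSO and 800.4, 864, 916 and 870.2 with IMP1088. The groups did not overlap at either setting. PRKACA had a log2 change of -0.35 ± 0.05 (SE, fold 0.782, limma adjusted p = 1.77e-05) at high MYC and -0.23 ± 0.05 (SE, fold 0.852, limma adjusted p = 0.00147) at medium MYC. The second catalytic subunit, PRKACB, had log2 changes of -0.09 (adjusted p = 0.446) and -0.13 (adjusted p = 0.232). Beside 16.3% and 14.6% of all tested genes, 2 of 6 tested regulatory subunits and inhibitors of the kinase fell at high MYC and 1 at medium MYC. On the log2 scale these were PRKAR2B, by 0.29 (adjusted p = 0.0123, but 0.0515 without high MYC DMSO library 4), and PRKAR2A, by 0.27 (adjusted p = 0.0236, lost in 4 of the 16 fits that each left out 1 library, up to 0.0961 without high MYC IMP1088 library 1). At medium MYC it was the inhibitor PKIA, by 0.51 (adjusted p = 0.0221, lost in 4 of the 16 fits that each left out 1 library, up to 0.0903 without medium MYC IMP1088 library 1).

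PRKAB2 (ENSG00000131791, chromosome 1, 147155106 to 147172550, minus strand) encodes a beta subunit of the energy sensor AMPK and was the member with the largest rise at high MYC. PRKAB2 had normalized counts of 279, 265, 306 and 319 with DMSO and 358, 359, 364 and 328 with IMP1088 at high MYC. At medium MYC the counts were 329.6, 347, 297 and 320.0 with DMSO and 301, 312, 316 and 312 with IMP1088. At high MYC every IMP1088 library exceeded every DMSO library, and at medium MYC the groups overlapped. PRKAB2 had a log2 change of 0.27 ± 0.06 (SE, fold 1.21, limma adjusted p = 0.00251) at high MYC and -0.06 ± 0.06 (SE, fold 0.961, limma adjusted p = 0.555) at medium MYC, and the difference between responses was 0.33 ± 0.09 (SE, limma adjusted p = 0.0213). The PRKAB2 call on the difference was lost in the fits without medium MYC DMSO library 2 (adjusted p = 0.0545) and without high MYC DMSO library 2 (adjusted p = 0.052). PRKAB2 missed the threshold on the difference with replicate block nested in MYC level (adjusted p = 0.0561). PRKAB1, the other beta subunit, had log2 changes of 0.04 (adjusted p = 0.683) and 0.01 (adjusted p = 0.898). Among the 4 tested genes for the other AMPK subunits and the upstream kinase STK11, limma called 0 at either setting. At both, 0 had an unadjusted p under 0.05, and edgeR and DESeq2 also called 0. Limma called 26.8% of all tested genes at high MYC and 26.3% at medium MYC. A list of 4 is too small for 0 calls to show that these genes do not respond.

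STK16, a Golgi-associated kinase, rose by 0.23 (adjusted p = 0.0235) at high MYC, with an exon overlap of 651 bases with other genes. The STK16 call at high MYC was lost in the fits without high MYC DMSO library 2 (adjusted p = 0.0841), without high MYC IMP1088 library 1 (adjusted p = 0.0726), without high MYC DMSO library 1 (adjusted p = 0.0622) and without high MYC DMSO library 3 (adjusted p = 0.0524). STK16 missed the threshold at high MYC with compared groups only (adjusted p = 0.0706) and DESeq2 (adjusted p = 0.0649). CCNY, a cyclin anchored at the plasma membrane, fell by 0.21 (adjusted p = 0.00139) at medium MYC. PIK3R4, the pseudokinase of the class III phosphatidylinositol 3-kinase, had log2 changes of 0.10 (adjusted p = 0.159) and 0.05 (adjusted p = 0.552). Of 6 other genes of that complex, 3 rose and 2 fell at high MYC and 3 rose at medium MYC, but at high MYC the rises of ATG14 and BECN1 were each lost in 11 of the 16 fits that left out 1 library, and at medium MYC that of BECN1 was lost in 6. DESeq2 called 3 of the 6 at high MYC and 2 at medium MYC, and edgeR called 4 at each. The shares of all tested genes in limma were 10.5% higher and 16.3% lower at high MYC, and 11.7% higher and 14.6% lower at medium MYC. The lipid kinase PIK3C3 rose by 0.24 and 0.32, ATG14 rose by 0.33 at medium MYC, and RUBCN, a negative regulator of the complex, fell by 0.53 at high MYC with a difference of -0.45 (adjusted p = 9.92e-05) from its response at medium MYC.

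Phosphatases and calcium sensors were represented by 6 tested genes, of which CHP1 fell at both settings and NCS1 at medium MYC. CHP1, a calcium-binding partner of sodium-proton exchangers, fell by 0.35 (adjusted p = 8.19e-06) at high MYC and by 0.15 (adjusted p = 0.0238) at medium MYC. The CHP1 call at medium MYC was lost in the fits without medium MYC IMP1088 library 1 (adjusted p = 0.0952), without medium MYC IMP1088 library 2 (adjusted p = 0.0574), without medium MYC DMSO library 1 (adjusted p = 0.052) and without medium MYC IMP1088 library 4 (adjusted p = 0.0517). CHP1 missed the threshold at medium MYC with quantile normalization (adjusted p = 0.0885) and equal library totals (adjusted p = 0.0691). NCS1 (ENSG00000107130, chromosome 9, 130172578 to 130237304, plus strand), a neuronal calcium sensor, fell at medium MYC. At high MYC, NCS1 stood at 204, 199, 189 and 188 normalized counts with DMSO and at 179.6, 159.7, 190.2 and 179 with IMP1088. The medium MYC values were 75.1, 61.6, 79.6 and 68.9 with DMSO and 48.9, 49.7, 66.8 and 52.4 with IMP1088. The medium MYC values with IMP1088 were mostly lower than with DMSO, but IMP1088 library 3 lay inside the DMSO range. NCS1 had a log2 change of -0.39 ± 0.11 (SE, fold 0.764, limma adjusted p = 0.00929) there and -0.14 ± 0.11 (SE, fold 0.908, limma adjusted p = 0.375) at high MYC. The phosphatases PPM1A and PPM1B had log2 changes of 0.13 (adjusted p = 0.071) and -0.03 (adjusted p = 0.775) at high MYC and of 0.11 (adjusted p = 0.114) and 0.14 (adjusted p = 0.053) at medium MYC. Of the 6 tested genes of this group, edgeR called 3 at medium MYC, and limma and DESeq2 each called 2. PPP3R1, the regulatory subunit of the phosphatase calcineurin, had log2 changes of -0.07 (adjusted p = 0.378) and 0.03 (adjusted p = 0.723). Among all tested genes, 16.3% fell at high MYC, and 14.6% fell and 11.7% rose at medium MYC. Of 10 other calcineurin and NFAT genes, 4 fell at high MYC, and 3 fell and 1 rose at medium MYC. With 1 library left out, 1 of the 4 calls at high MYC, NFATC3, and 2 of the 4 at medium MYC held in every fit. The rise at medium MYC was that of PPP3CC, a catalytic subunit, by 0.18 (adjusted p = 0.0458, lost in 10 of the 16 fits that each left out 1 library, up to 0.139 without medium MYC IMP1088 library 2). At medium MYC edgeR called 4 of the 10 genes and DESeq2 called 2. NFATC3, a transcription factor that calcineurin activates, fell by 0.18 at high MYC (adjusted p = 6.59e-04), and NFATC4 by 0.24 (adjusted p = 0.0116, but 0.0526 without high MYC IMP1088 library 1).

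Of the mitochondrial, lipid and redox genes, CYB5R3 and SAMM50 fell at both settings, CHCHD3 at high MYC, and DEGS1 and AIFM2 at medium MYC. These falls were 3 of 6 tested at high MYC and 4 of 6 at medium MYC. The shares over all tested genes were 16.3% and 14.6%. CYB5R3 (ENSG00000100243, chromosome 22, 42617840 to 42649568, minus strand) encodes an NADH-dependent cytochrome b5 reductase that serves lipid desaturation and is anchored in the endoplasmic reticulum and outer mitochondrial membrane. The normalized counts of CYB5R3 at high MYC were 1173, 1192, 997 and 1024 with DMSO and 631, 631, 699 and 654 with IMP1088. Under medium MYC, CYB5R3 had 997, 1026, 1124 and 954 with DMSO and 519.6, 538, 547 and 530.4 with IMP1088. Every IMP1088 library lay below every DMSO library at both settings. The means with DMSO were 1096 ± 100.4 and 1025 ± 71.9 (SD, n = 4), and with IMP1088 654 ± 32.0 and 534 ± 11.8. CYB5R3 had a log2 change of -0.74 ± 0.06 (SE, fold 0.598, limma adjusted p = 3.61e-09) at high MYC and -0.94 ± 0.06 (SE, fold 0.522, limma adjusted p = 6.31e-11) at medium MYC, and the difference between them was 0.20 (adjusted p = 0.157).

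DEGS1 (ENSG00000143753, chromosome 1, 224175756 to 224193441, plus strand) encodes the desaturase that turns dihydroceramide into ceramide, a reaction in the same membrane. DEGS1 had normalized counts of 728, 809.7, 812 and 829 with DMSO and 786, 812, 796 and 812 with IMP1088 at high MYC. Medium MYC libraries gave 1194, 1160.1, 1129 and 1202 with DMSO and 863, 813, 827 and 780.4 with IMP1088. The inhibitor groups of both settings and the DMSO group at high MYC covered similar values, and the 4 medium MYC DMSO libraries stood above them all. DEGS1 had a log2 change of 0.01 ± 0.04 (SE, fold 1.01, limma adjusted p = 0.853) at high MYC and -0.51 ± 0.04 (SE, fold 0.701, limma adjusted p = 7.28e-09) at medium MYC, and the difference was 0.53 ± 0.06 (SE, limma adjusted p = 3.85e-06). AIFM2 (ENSG00000042286, chromosome 10, 70098223 to 70132934, minus strand), a coenzyme Q reductase known to protect from ferroptosis, showed a smaller fall at medium MYC. At high MYC, AIFM2 stood at 105, 112, 97.1 and 98.4 normalized counts with DMSO and at 112, 105, 91.6 and 89.4 with IMP1088. At medium MYC the counts were 183, 199, 186 and 168 with DMSO and 141, 162, 145 and 168 with IMP1088. The groups overlapped at both settings. AIFM2 had a log2 change of -0.05 ± 0.09 (SE, fold 0.963, limma adjusted p = 0.723) at high MYC and -0.26 ± 0.09 (SE, fold 0.837, limma adjusted p = 0.0475) at medium MYC. The AIFM2 call at medium MYC was lost in 9 of the 16 fits that each left out 1 library, with adjusted p-values there from 0.0503 to 0.137, the last without medium MYC DMSO library 2. AIFM2 missed the threshold at medium MYC in 6 of 14 other processing settings, at most with an adjusted p of 0.105 (GC correction).

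**Figure D2:**
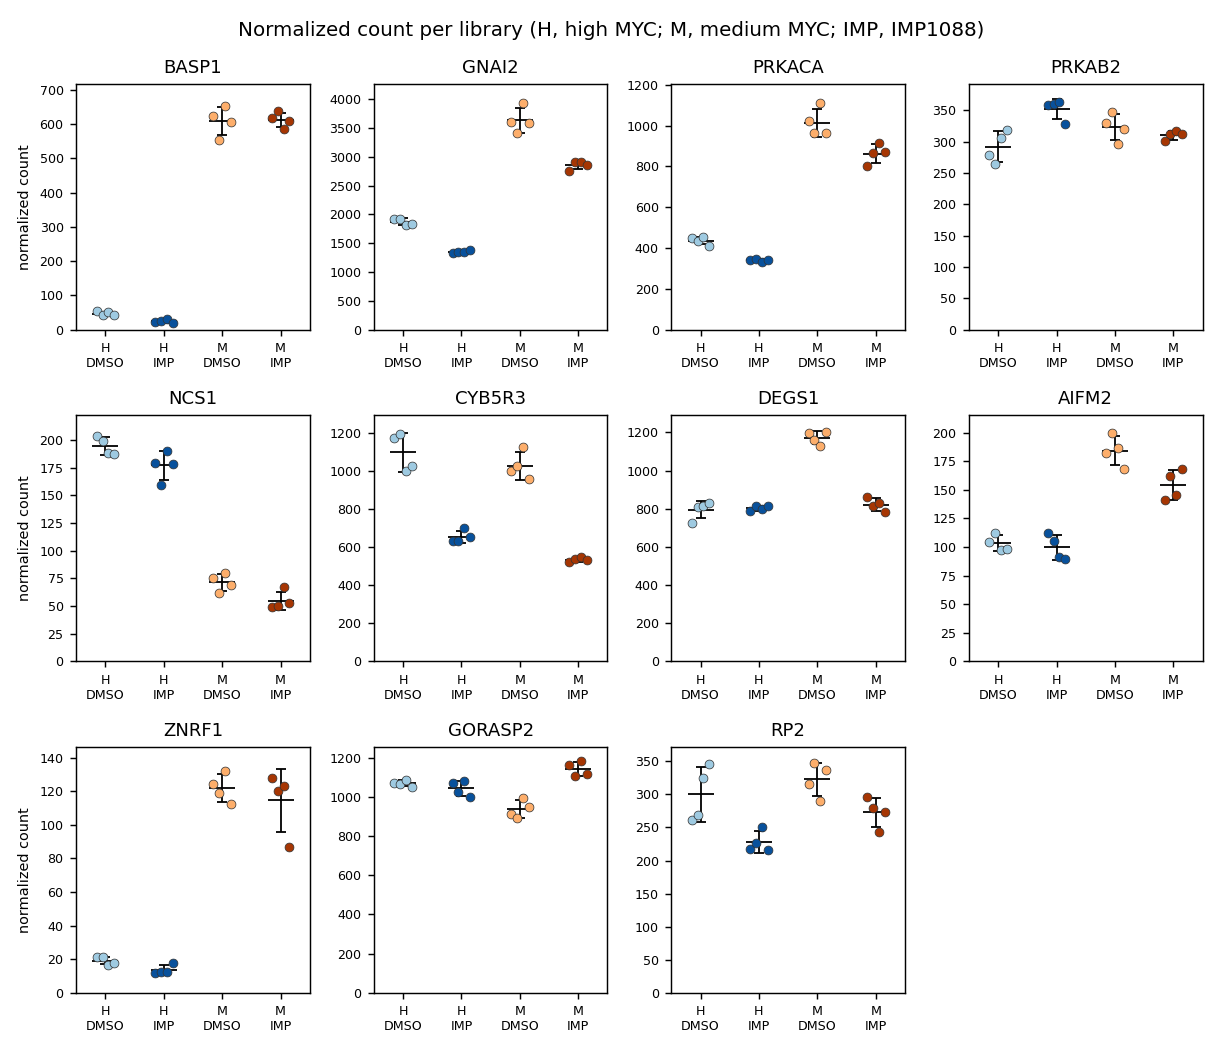
Normalized count (y axis, linear from 0) in each of the 16 libraries for the 11 members printed library by library in the inhibitor comparisons; points are libraries, the long bar the mean and the short bars ± 1 SD of 4. CYB5R3 and GNAI2 are lower with IMP1088 at both MYC settings, DEGS1 is lower with IMP1088 at medium MYC, and BASP1 is low at high MYC, where its means were 47.3 with DMSO and 25.3 with IMP1088.

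SAMM50, the channel that assembles beta-barrel proteins in the outer mitochondrial membrane, fell by 0.22 (adjusted p = 9.81e-04) and 0.16 (adjusted p = 0.0138). SAMM50 missed the threshold at medium MYC with equal library totals (adjusted p = 0.0525). CHCHD3, a subunit of the MICOS complex that shapes mitochondrial cristae, fell by 0.13 (adjusted p = 0.00812) at high MYC. CHCHD3 missed the threshold at high MYC with DESeq2 (adjusted p = 0.058) and quantile normalization (adjusted p = 0.0537). Its relative CHCHD6 had log2 changes of -0.03 (adjusted p = 0.906) and -0.03 (adjusted p = 0.911). Of 9 other MICOS and SAM genes, MTX3 rose at high MYC by 0.17 (adjusted p = 0.0419, lost in 6 of the 16 fits that each left out 1 library, up to 0.157 without high MYC DMSO library 1). At medium MYC APOOL rose by 0.19 (adjusted p = 0.0237, lost in 3 of the 16 fits that each left out 1 library, up to 0.0995 without medium MYC DMSO library 3), and IMMT fell by 0.11 (adjusted p = 0.0134, but 0.0533 without medium MYC DMSO library 3). Of all tested genes, 10.5% rose at high MYC, and 11.7% rose and 14.6% fell at medium MYC.

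Of the 4 ubiquitin ligase genes, ZNRF1 (ENSG00000186187, chromosome 16, 74999030 to 75110994, plus strand), a membrane-associated ligase, fell at high MYC. The normalized counts of ZNRF1 at high MYC were 21.1, 21.3, 16.6 and 17.9 with DMSO and 11.8, 12.2, 12.2 and 17.7 with IMP1088. The medium MYC values were 124, 119, 132 and 112 with DMSO and 128, 120.2, 123 and 86.7 with IMP1088. At high MYC 3 IMP1088 libraries lay below all DMSO libraries and the other overlapped them, and at medium MYC IMP1088 library 4 stood below the rest. ZNRF1 had a log2 change of -0.49 ± 0.16 (SE, fold 0.711, limma adjusted p = 0.0253) at high MYC and -0.10 ± 0.16 (SE, fold 0.931, limma adjusted p = 0.691) at medium MYC. The ZNRF1 call at high MYC was lost in the fits without high MYC DMSO library 2 (adjusted p = 0.0699), without high MYC DMSO library 1 (adjusted p = 0.0682), without high MYC IMP1088 library 1 (adjusted p = 0.0679), without high MYC IMP1088 library 2 (adjusted p = 0.0615) and without high MYC IMP1088 library 3 (adjusted p = 0.0605). ZNRF1 missed the threshold at high MYC in 5 of 13 other processing settings, at most with an adjusted p of 0.184 (DESeq2). ZNRF1 exons overlap other genes over 1739 bases. RNF11, ZNRF2 and ANKIB1 had log2 changes of 0.04, 0.08 and -0.04 at high MYC and of 0.10, 0.01 and -0.06 at medium MYC, none of them called. A separate ligase system degrades proteins whose initial glycine lacks myristate. Of its 6 genes, the receptor ZER1 fell by 0.24 at high MYC (adjusted p = 0.00162), with a difference of -0.35 (adjusted p = 0.00374) between the responses. At medium MYC limma called 0 of the 6, edgeR and DESeq2 also 0, and 1 had an unadjusted p under 0.05. For comparison, limma called 26.8% of all tested genes at high MYC, 16.3% lower, and 26.3% at medium MYC, 14.6% lower.

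The Golgi and membrane traffic genes moved in both directions. GORASP2 (ENSG00000115806, chromosome 2, 170928464 to 170967129, plus strand), a protein that links Golgi stacks, rose at medium MYC. GORASP2 had normalized counts of 1072, 1066, 1087 and 1051 with DMSO and 1069, 1026, 1083 and 999.98 with IMP1088 at high MYC. Under medium MYC, GORASP2 had 914, 894, 996 and 949 with DMSO and 1164, 1105, 1182 and 1119 with IMP1088. At medium MYC every IMP1088 library exceeded every DMSO library, and at high MYC the groups overlapped. GORASP2 had a log2 change of -0.03 ± 0.04 (SE, fold 0.977, limma adjusted p = 0.574) at high MYC and 0.28 ± 0.04 (SE, fold 1.22, limma adjusted p = 8.44e-06) at medium MYC, with a difference of -0.32 ± 0.05 (SE, limma adjusted p = 4.84e-04). Its paralog GORASP1 fell by 0.13 (adjusted p = 0.0434) at high MYC. The GORASP1 call at high MYC was lost in 11 of the 16 fits that each left out 1 library, with adjusted p-values there from 0.0509 to 0.14, the last without high MYC DMSO library 4. GORASP1 missed the threshold at high MYC in 9 of 14 other processing settings, at most with an adjusted p of 0.247 (GC correction with replicate block).

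RP2 (ENSG00000102218, chromosome X, 46836940 to 46882358, plus strand) encodes the GTPase-activating protein of ARL3, the small GTPase that releases myristoylated cargo from its carriers, and it fell at both settings. At high MYC, RP2 stood at 261, 269.5, 324 and 345 normalized counts with DMSO and at 217, 226, 251 and 215 with IMP1088. Medium MYC libraries gave 316, 347, 291 and 337 with DMSO and 296, 279, 243 and 273 with IMP1088. The groups did not overlap at high MYC and overlapped at medium MYC. RP2 had a log2 change of -0.39 ± 0.09 (SE, fold 0.763, limma adjusted p = 0.00201) at high MYC and -0.24 ± 0.09 (SE, fold 0.846, limma adjusted p = 0.0475) at medium MYC. The RP2 call at medium MYC was lost in 9 of the 16 fits that each left out 1 library, with adjusted p-values there from 0.052 to 0.157, the last without medium MYC IMP1088 library 3. RP2 missed the threshold at medium MYC in 5 of 14 other processing settings, at most with an adjusted p of 0.0925 (equal library totals). LANCL2, a membrane-associated protein of the lanthionine synthetase family, rose by 0.22 (adjusted p = 0.0281) at medium MYC. The LANCL2 call at medium MYC was lost in the fits without medium MYC IMP1088 library 3 (adjusted p = 0.107), without medium MYC DMSO library 4 (adjusted p = 0.0878), without medium MYC IMP1088 library 4 (adjusted p = 0.0876) and without medium MYC DMSO library 3 (adjusted p = 0.0641). LANCL2 missed the threshold at medium MYC with replicate block nested in MYC level (adjusted p = 0.0631).

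Genes that handle the modification itself, a list of 9 with NMT1 and NMT2, had 4 that fell at high MYC and 2 at medium MYC. The shares of all tested genes that fell were 16.3% and 14.6%. The carrier genes UNC119 and UNC119B, whose proteins shield the myristate in the cytosol, fell at both. UNC119 fell by 0.23 at high MYC (adjusted p = 0.0131, but 0.06 without high MYC IMP1088 library 4) and by 0.46 at medium MYC. UNC119B fell by 0.21 at high MYC and by 0.13 at medium MYC (adjusted p = 0.0242, lost in 4 of the 16 fits that each left out 1 library, up to 0.089 without medium MYC DMSO library 4). ARL3 fell by 0.37 at high MYC. Among all tested genes, 16.3% fell and 10.5% rose at high MYC, and 14.6% fell and 11.7% rose at medium MYC. Of 13 substrates outside the member list, Src kinases, ARF GTPases and LAMTOR1, 5 fell and 1 rose at high MYC, and 8 fell and 2 rose at medium MYC. Of these calls, BLK at high MYC (adjusted p = 0.028, lost in 5 of the 16 fits that each left out 1 library, up to 0.109 without high MYC IMP1088 library 4) and ARF3 at medium MYC (adjusted p = 0.0118, but 0.0525 without medium MYC IMP1088 library 1) did not hold in every fit with 1 library left out. The kinase LYN fell by 0.45 at high MYC, with a difference of -0.34 (adjusted p = 8.16e-06) from medium MYC. LCK fell by 0.93 and the Golgi GTPase ARF4 rose by 0.59 at medium MYC.

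Whether the inhibitor response depends on MYC setting was tested as an interaction, the response at high minus that at medium MYC. Limma called 4 of the 35 members (11.4%), against 8.63% of all tested genes, 3.31% higher and 5.33% lower. DEGS1 and PRKAB2 had the higher response at high MYC, and BASP1 and GORASP2 the lower. The median difference of the members was -0.0017, beside -0.02 for all genes. In BASP1 and PRKAB2 the response past the threshold was at high MYC, and in DEGS1 and GORASP2 at medium MYC. The responses of the other 31 members were not shown to differ in this fit. The count of 4 rose to 8 with a GC correction chosen after seeing the data, against 12% of all genes in that fit, and to 7 without medium MYC DMSO library 3, against 9.81%.

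The second question of the design was how the substrate genes differ between MYC settings without inhibitor. At medium MYC, 21 of the 35 members were higher and 7 lower than at high MYC (limma adjusted p under 0.05), while 76.2% of all tested genes were called, 38.9% higher and 37.3% lower. The median log2 difference, medium minus high, was 0.25 for the members and 0.02 for all genes. In 17 members all medium MYC DMSO libraries exceeded all high MYC ones and in 7 all were lower, against 35.6% and 33.6% of all tested genes, 69.2% together. The mitochondrial share of reads, 4.22% to 4.76% at high MYC and 3.17% to 3.79% at medium MYC with DMSO, also differed between these groups, and its part in the result was not tested. The DMSO libraries enter the inhibitor comparisons too, so the comparisons are not independent.

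The largest differences lay in the membrane-actin group, where 5 of 6 tested genes were higher at medium MYC with a group median of 3.30 (log2). Of all tested genes, 38.9% were higher. FMNL3 (ENSG00000161791, chromosome 12, 49636499 to 49708165, minus strand), a formin that builds filopodia, had few counts at high MYC. The normalized counts of FMNL3 at high MYC were 20.3, 20.2, 21.0 and 21.2 with DMSO and 23.7, 18.9, 23.6 and 20.8 with IMP1088. At medium MYC the counts were 1635, 1621, 1687 and 1634 with DMSO and 1400.4, 1506, 1526 and 1485 with IMP1088. The medium MYC libraries were higher than every high MYC library by a wide margin in both treatments. The log2 difference with DMSO was 6.25 ± 0.07 (SE, fold 75.9, limma adjusted p = 1.51e-24). FMNL3 exons overlap those of PRPF40B on the other strand over 2643 bases, and without known strand use these reads cannot be assigned. With IMP1088 all medium MYC values of FMNL3 lay below those with DMSO, a log2 change of -0.15 (adjusted p = 0.129). Its relative FMNL1 had a log2 difference of -0.07 (adjusted p = 0.166).

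BASP1 followed, with 47.3 ± 5.62 normalized counts at high MYC and 609 ± 41.8 at medium MYC with DMSO (mean ± SD, n = 4), a log2 difference of 3.66 ± 0.11 (SE, fold 12.7, limma adjusted p = 6.01e-18). RFTN1 (ENSG00000131378, chromosome 3, 16313574 to 16514026, minus strand) encodes raftlin, a lipid raft protein first described in B cells. RFTN1 had normalized counts of 88.1, 78.6, 78.4 and 76.0 with DMSO and 87.1, 72.1, 80.3 and 70.7 with IMP1088 at high MYC. The medium MYC values were 933, 946, 1052 and 968 with DMSO and 941, 959, 937 and 858 with IMP1088. These ranges were far apart between MYC settings and overlapped between treatments. RFTN1 had a log2 difference of 3.59 ± 0.07 (SE, fold 12.0, limma adjusted p = 5.58e-21). MARCKS (ENSG00000277443, chromosome 6, 113857362 to 113863471, plus strand), a substrate of protein kinase C that binds actin and acidic lipids, showed the same order. At high MYC, MARCKS stood at 205, 245, 232 and 200.1 normalized counts with DMSO and at 187, 222, 245 and 201 with IMP1088. Under medium MYC, MARCKS had 1815, 1804, 1678 and 1855 with DMSO and 1914, 2057, 2044 and 2026 with IMP1088. The medium MYC libraries exceeded all high MYC libraries, and the IMP1088 values at medium MYC lay just above the DMSO values. MARCKS had a log2 difference of 3.02 ± 0.07 (SE, fold 8.10, limma adjusted p = 1.08e-19). MARCKSL1 was higher by 1.25 (adjusted p = 1.67e-17).

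**Figure D3:**
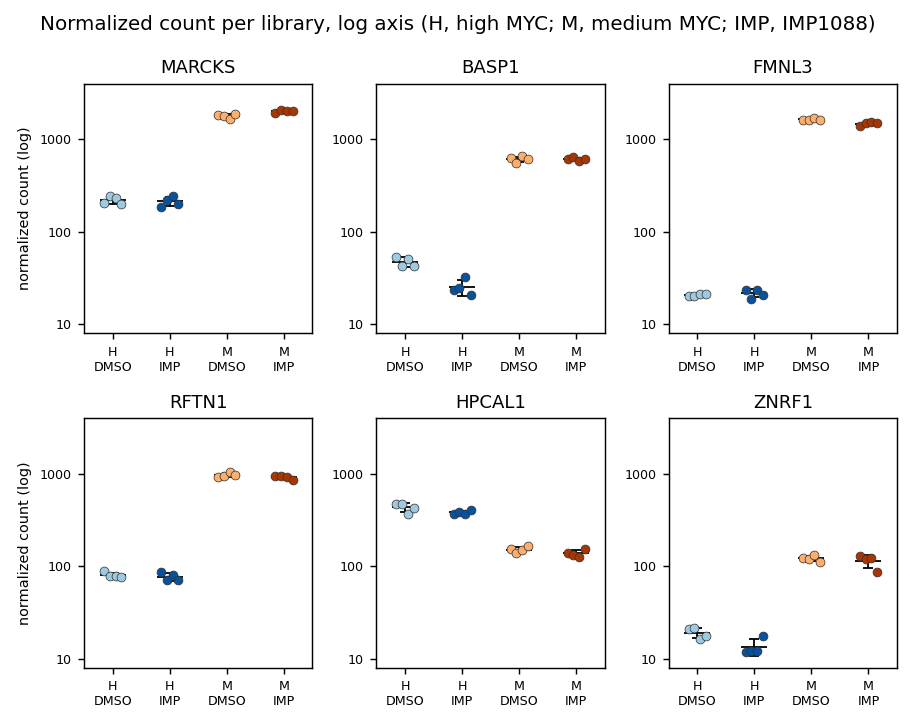
Normalized count (y axis, log scale) in each library for the 6 members with the largest differences between MYC settings; points are libraries, the long bar the mean and the short bars ± 1 SD of 4. MARCKS, BASP1, FMNL3, RFTN1 and ZNRF1 lie higher in every medium MYC library than in any high MYC library, and HPCAL1 lies lower.

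At medium MYC 38.9% of all tested genes were higher and 37.3% lower, the shares to set beside the counts of these small lists. All 4 ubiquitin ligases were higher at medium MYC, with a median of 0.80. ZNRF1 differed by 2.61 ± 0.16 (SE, fold 6.10, limma adjusted p = 1.81e-12), with no overlap among the DMSO libraries given above. RNF11, ANKIB1 and ZNRF2 were higher by 0.93, 0.68 and 0.28. Both G protein alpha subunits were higher, GNAI2 by 0.95 ± 0.04 (SE, fold 1.93, limma adjusted p = 4.99e-16) and GNAI3 by 0.60. PRKACA was higher by 1.21 ± 0.05 (SE, fold 2.32, limma adjusted p = 2.46e-15), and PRKACB was lower, with a log2 difference of -0.43 (adjusted p = 2.19e-05), so the catalytic subunits of protein kinase A moved in opposite directions. Among the regulatory subunits and inhibitors of that kinase 3 were higher and 3 lower, the call of PKIA among the latter (adjusted p = 0.0379, lost in 3 of the 16 fits that each left out 1 library, up to 0.148 without high MYC DMSO library 2), and of the AMPK list 3 of 4 were higher, PRKAG1 by 1.48. PRKAB1 was higher by 0.31, and PRKAB2 by 0.15 (adjusted p = 0.0394). The PRKAB2 call between MYC settings was lost in the fits without high MYC DMSO library 2 (adjusted p = 0.157), without medium MYC DMSO library 2 (adjusted p = 0.135), without high MYC DMSO library 1 (adjusted p = 0.1), without medium MYC DMSO library 1 (adjusted p = 0.082) and without medium MYC DMSO library 4 (adjusted p = 0.0577). PRKAB2 missed the threshold between MYC settings in 6 of 13 other processing settings, at most with an adjusted p of 0.0822 (compared groups only).

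The calcium sensors HPCAL1 and NCS1 and the mitochondrial gene CHCHD6, with -1.40, formed the lower end. HPCAL1 (ENSG00000115756, chromosome 2, 10302889 to 10427617, plus strand), of the same neuronal sensor family as NCS1, was lower at medium MYC. The normalized counts of HPCAL1 at high MYC were 478, 472, 365 and 429 with DMSO and 366, 392, 374 and 406 with IMP1088. Medium MYC libraries gave 154, 139.5, 149.7 and 165 with DMSO and 139.8, 133, 125 and 154 with IMP1088. Every medium MYC library lay below every high MYC library, and treatments overlapped. HPCAL1 had a log2 difference of -1.51 ± 0.08 (SE, fold 0.352, limma adjusted p = 3.50e-13). NCS1 differed by -1.44 ± 0.11 (SE, fold 0.368, limma adjusted p = 5.48e-11) and the calcineurin subunit PPP3R1 by -0.49 (adjusted p = 1.14e-08). The phosphatases PPM1A and PPM1B were higher, by 0.59 and 0.71, and CHP1 was higher by 0.13 (adjusted p = 0.0178). The CHP1 call between MYC settings was lost in the fits without high MYC DMSO library 4 (adjusted p = 0.0746) and without high MYC DMSO library 3 (adjusted p = 0.0512). Of 10 other calcineurin and NFAT genes 4 were higher and 3 lower, beside 38.9% and 37.3% of all tested genes.

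The mitochondrial, lipid and redox members moved in both directions. SAMM50 and CHCHD6 were lower at medium MYC, with log2 differences of -0.36 (adjusted p = 4.03e-07) and -1.40 (adjusted p = 4.18e-08), and CHCHD3 had a log2 difference of 0.01 (adjusted p = 0.808). The 9 other MICOS and SAM genes were lower, with a median of -0.67, where 37.3% of all tested genes were lower. The calls of 7 held in every fit with 1 library left out, and those of MTX1, with -0.21 (adjusted p = 0.0224, lost in 4 of the 16 fits that each left out 1 library, up to 0.0785 without medium MYC DMSO library 4), and IMMT, with -0.09 (adjusted p = 0.0171, but 0.0663 without medium MYC DMSO library 2), did not. MICOS10 and MTX3 had log2 differences of -0.92 and -0.73. In contrast, DEGS1 and AIFM2 were higher by 0.56 ± 0.04 (SE, fold 1.47, limma adjusted p = 7.97e-11) and 0.83 ± 0.09 (SE, fold 1.78, limma adjusted p = 5.33e-08), and CYB5R3 had a log2 difference of -0.09 (adjusted p = 0.143). Of the Golgi and other genes, GORASP1 was higher by 0.18 (adjusted p = 0.00192) and GORASP2 lower, with -0.19 (adjusted p = 1.54e-04), while RP2 and LANCL2 had log2 differences of 0.11 (adjusted p = 0.253) and 0.04 (adjusted p = 0.642). GORASP1 missed the threshold between MYC settings with GC correction with replicate block (adjusted p = 0.217) and GC correction (adjusted p = 0.186). STK16 was higher by 0.25 (adjusted p = 0.00446). STK16 missed the threshold between MYC settings with GC correction with replicate block (adjusted p = 0.058). CCNY and PIK3R4 had log2 differences of -0.03 (adjusted p = 0.527) and -0.05 (adjusted p = 0.434).

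**Figure D4:**
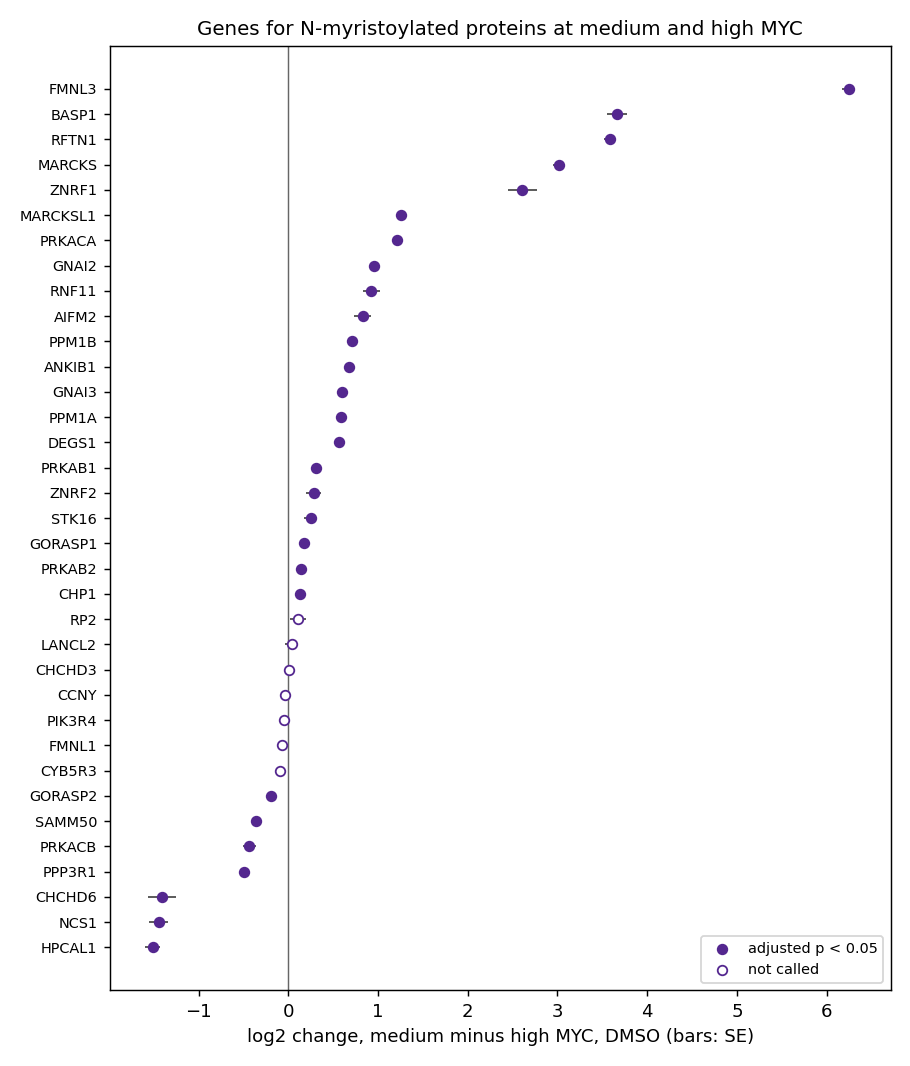
Log2 difference between medium and high MYC in DMSO libraries (x axis, log2 of the normalized count plus 1) for the 35 tested members in order; filled points have a limma adjusted p under 0.05 and bars are SEs. FMNL3 at 6.25 and HPCAL1 at -1.51 are the ends of the range, and 21 filled points lie right of 0 and 7 left of it.

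For each list that follows, the share over all tested genes was 76.2% called, 38.9% higher and 37.3% lower. Among the genes that act on the modification, 5 were higher and 4 lower at medium MYC. The carrier UNC119 was higher by 2.25, and METAP1, a methionine aminopeptidase that exposes the glycine, was lower, with -1.03. All 6 genes of the glycine degradation system were called, 4 higher and 2 lower, with ZER1 higher by 0.99 and ZYG11B by 0.18 (adjusted p = 0.0301, lost in 4 of the 16 fits that each left out 1 library, up to 0.125 without high MYC DMSO library 1). Of the 13 substrates outside the member list, 12 were higher and 1 lower, LYN higher by 1.07. The smallest of these rises, in ARF6, was 0.11 (adjusted p = 0.0497, lost in 13 of the 16 fits that each left out 1 library, up to 0.25 without high MYC DMSO library 1), and the other 12 calls held in every fit with 1 library left out. Of 14 other G protein genes 7 were higher and 5 lower, GNB4 with -1.64, and of the 6 class III phosphatidylinositol 3-kinase genes 5 were higher, among them RUBCN by 1.61, and UVRAG was lower, with -0.25. With 1 library left out, the calls of ATG14 (adjusted p = 0.0389, lost in 5 of the 16 fits that each left out 1 library, up to 0.15 without medium MYC DMSO library 1) and PIK3C3 (adjusted p = 0.0123, but 0.057 without medium MYC DMSO library 2) were lost, which leaves 4 of these 6 calls.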

How the data were processed

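The authors deposited 1 table of normalized counts, a non-negative signal per gene and library. Per the submitters' processing notes, RSEM 1.2.31, STAR 2.5.2a, DESeq2 1.16.1 and GRCh38 were named, with no role or order. The annotation, strand use and filters are not given in the sources used here. In each library 100% of values were a whole multiple of its library's step (relative tolerance 1e-06), so whole reads were recovered, and size factors ran from 0.858 to 1.33. Intervals and floors from these reads cover counting error only. Symbols matched 56948 of 58051 identifiers. Positions are GENCODE release 29 on GRCh38, found for 57447 identifiers by identifier.

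Groups came from the sample titles. limma 3.58.1 in R 4.3.3 was fitted to log2 of the deposited normalized count plus 1 over 13765 genes with a mean of at least 10, with all 16 libraries, 4 group means, a mean trend and Benjamini-Hochberg adjustment, two-sided. Fold changes are on that scale and understate those of low genes. Genes were called at an adjusted p under 0.05. Members printed library by library were, per comparison, up to 6 called members with the largest change among those with a mean of at least 50, and up to 2 called genes per other list and comparison were named by smallest p; in those lists log2 values without a p were called, and relatives of members set beside them are given with their values. The test was also run on simulated counts with few changed genes, unlike these data. The outcome of that run is not given, and no result here rests on it. Alternatives were other scalings, pseudocounts, filters and blocks, edgeR 4.0.16 and DESeq2 1.42.0 on recovered reads, a GC correction and leaving out each library. No 2 libraries of a group agreed within sampling noise (chi-square per degree of freedom 1.71 to 10.8). The members, lists and rules were chosen with earlier results of these data known. From the marker and substrate lists, 1 gene each is not reported here.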

Additional observations from a re-analysis of the deposited data

Results flagged for a closer look

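In 7 of the 140 gene and group sets examined, 1 library stood apart from the other 3 by Dixon's criterion, whose chance rate is about 1 set in 20, which is 7 of 140. In the high MYC IMP1088 group, PRKACB had its lowest library at 404 beside 469 to 480.3. There PRKAB2 had its lowest at 328 beside 358 to 364, STK16 its highest at 200.02 beside 185 to 186, and ZNRF1 its highest at 17.7 beside 11.8 to 12.2. In the medium MYC IMP1088 group ZNRF1 had its lowest at 86.7 beside 120.2 to 128. PPM1A had its lowest in the medium MYC DMSO group at 846 beside 958 to 965, and GORASP1 its highest in the high MYC DMSO group at 428 beside 394 to 399 (normalized counts).

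In 4 genes the inhibitor response differed between MYC settings in limma's interaction test. The log2 difference, high minus medium MYC, was -0.90 for BASP1 (adjusted p = 4.57e-04), 0.33 for PRKAB2 (adjusted p = 0.0213), 0.53 for DEGS1 (adjusted p = 3.85e-06) and -0.32 for GORASP2 (adjusted p = 4.84e-04).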

How the results depend on the processing

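The counts of called members at high MYC (14), medium MYC (15) and between MYC settings (28) stayed within 1.5 times in the alternatives run, at 10 to 14, 13 to 18 and 26 to 29, and at 11 to 15, 12 to 15 and 27 to 30 when each library was left out. The 4 called differences in response became 8 with a GC correction and 7 with a GC correction and replicate block, both chosen after seeing the data, and 3 to 7 with 1 library left out, with 7 without medium MYC DMSO library 3. The cause was not tested. The member median was -0.081 to -0.038 at high MYC and -0.113 to -0.055 at medium MYC over fits with 1 library left out, and 0.21 to 0.31 between MYC settings. It was -0.049 at medium MYC with equal library totals, and 0.22 between MYC settings with no filter on low values. At medium MYC the split of members was 2 higher and 13 lower, 4 and 9 with equal totals, and 5 and 12 with quantile normalization. Over all tested genes at high MYC it was 1442 higher and 2247 lower, and 1727 and 1770 with quantile normalization. At medium MYC it was 1606 and 2012, and 1962 and 1658 with equal totals.

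Of single-member results under an alternative, 3974 stayed on their side of the threshold, 98 lost a call, 50 gained one and 0 changed sign while called. Calls held in every alternative for 9 of 12 lower members at high MYC and 9 of 13 at medium MYC, and for 24 of 28 between MYC settings. Of calls among genes outside the members, 19 of 31 at high MYC, 16 of 29 at medium MYC, 8 of 10 differences and 64 of 72 between MYC settings held in every alternative.

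Residuals showed no clear pairing of DMSO with IMP1088 libraries by the replicate numbers in the titles, which does not exclude such pairing. Residuals of same-numbered DMSO and IMP1088 libraries correlated at -0.154 to 0.0494, with 0 of 8 pairs over 0.1, and 1 library correlated best with its own number. Same-numbered DMSO libraries of high and medium MYC correlated at -0.0348, -0.00834, -0.0989 and 0.239. Of these, only high MYC DMSO library 4, at 0.239, correlated best with its own number. With the number as a replicate block, 13 members were called at high MYC, 15 at medium MYC, 4 differences and 27 between MYC settings, and nested in MYC level 13, 15 and 3.

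Depth limits BASP1, ZNRF1 and FMNL3 at high MYC and CHCHD6 at medium MYC, where few reads underlie each value. FMNL3 averaged 20.7 normalized counts with DMSO at high MYC, the base of its fold of 75.9 between MYC settings. AKAP12 and EEPD1 could not be tested. On the recovered reads edgeR called 3703 genes at high MYC, 3858 at medium MYC, 1219 differences and 10556 between MYC settings. Fits that leave out a library keep 3 in that group. Strand use is unknown, and 14 members share exonic bases with another gene.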

Other observations

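Genes with the same coding start that are not members were also described. Among tested non-member genes with a GGN second codon, 782 in all, 70 rose and 160 fell at high MYC with a median log2 change of -0.04, and 99 rose and 141 fell at medium MYC with a median of -0.02. In the 114 of them with serine at the sixth codon, 10 rose and 33 fell at high MYC (median -0.10), and 11 rose and 30 fell at medium MYC (median -0.06). Among the 10550 tested coding genes with another second codon, 1007 rose and 1961 fell at high MYC (median -0.03), and 1274 rose and 1772 fell at medium MYC (median -0.02). A glycine codon does not show that a protein is myristoylated, and no test between these classes was made. Between MYC settings, 57 of the 114 were higher and 34 lower at medium MYC, with a median of 0.18. Of the 782, 347 were higher and 294 lower (median 0.07), and of the 10550, 4430 and 4009 (median 0.04). The shares called between MYC settings were close, 79.8% of the 114, 82.0% of the 782 and 80.0% of the 10550. With IMP1088 the shares called were further apart. At high MYC they were 37.7% of the 114, 29.4% of the 782 and 28.1% of the 10550. At medium MYC they were 35.96%, 30.7% and 28.9% in the same order. The shares that fell were 28.9%, 20.5% and 18.6% at high MYC, and 26.3%, 18.03% and 16.8% at medium MYC. Of all tested genes, 16.3% fell at high MYC and 14.6% at medium MYC.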
